A study of Mus musculus with 18 samples.

Results

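Primary erythroid cells lacking both θ CTCF sites of the α-globin locus were compared with WT cells of the same Capture-C experiment. The comparison took the 3 samples that the labels call Dt1t2 (here ∆θ1/θ2) and the 3 WT samples of experiment 2, that is 6 of the 18 samples of the series. The rule that picks them uses the genotype and experiment in the labels and no measured value. All 6 samples were Ter119+ erythroid cells of mice on a C57BL/6J background, isolated from spleens of adults given phenylhydrazine, a drug that destroys red cells and expands erythroid precursors. WT mice carried the unedited locus. In the homozygous ∆θ1/θ2 mice, made with CRISPR-Cas9, θ1 carried a small deletion and θ2 a replacement that brings in a new restriction site. The ∆θ2 samples of the same experiment, which carry the θ2 edit alone, served as a second comparison in 3 samples. The study describes its replicates as biological, and each edited genotype is a mouse line of its own.

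CTCF is a zinc-finger protein that binds DNA in an oriented manner and halts cohesin, the ring complex that extrudes chromatin loops. Pairs of bound sites facing each other often mark the borders of topologically associating domains (TADs) and of smaller sub-TADs, within which contacts are frequent. In erythroid cells the mouse α-globin sub-TAD holds a cluster of enhancers, most of them in introns of the neighbouring gene *Nprl3*, and the *Hba-a1* and *Hba-a2* genes that they activate. Capture-C digests fixed chromatin with DpnII, ligates fragments that lay close together, and enriches ligation products of chosen viewpoint fragments. The fragments joined to a viewpoint are its reporters, and their counts measure how often it met them.

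The θ sites lie just before the α-like genes *Hbq1b* and *Hbq1a*. They are shown because they are the edited elements and because their near identity bears on how reads map there. Each window is the 60 bases of the forward strand of the reference (NCBIM37, mm9), and capitals mark CCTGGCG, which reads CGCCAGG on the other strand and was used to place both windows.
θ1, chr11:32186905-32186964: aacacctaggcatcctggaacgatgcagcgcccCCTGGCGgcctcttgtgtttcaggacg
θ2, chr11:32200010-32200069: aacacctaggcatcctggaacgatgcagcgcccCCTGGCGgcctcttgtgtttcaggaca
The windows agreed at 59 of 60 bases and differed by G60A, with positions counted from 1 at the 5′ end and θ1 read first. The letters in capitals occur in 1.11% of 7633 windows of 60 bases before annotated gene starts on chromosomes 7, 11 and 14, so they are a description and no proof of a site. The θ1 window ends next to the start of *Hbq1b* at 32186965, and the θ2 window reaches the start of *Hbq1a* at 32200069. The sites sit in DpnII fragments of 564 bp and 645 bp.

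Reporters were counted from 5 viewpoints. The Hba-1 and Hba-2 fragments, at chr11:32182969-32183821 and chr11:32195804-32196638, lie in *Hba-a1* and *Hba-a2*. The β-globin fragment labelled Hbb-b1, at chr7:110961967-110962817, lies in the gene annotated *Hbb-b2*, and the fragment labelled Hbb-b2, at chr7:110975976-110976456, lies in *Hbb-b1*. The Slc25A37 fragment at chr14:69902454-69903469 lies in *Slc25a37*, which encodes mitoferrin, the mitochondrial iron importer of erythroid cells. WT samples held 65610 to 159777 counts over the 5 viewpoints and ∆θ1/θ2 samples 70160 to 149234. Counts per listed fragment on other chromosomes ran from 1.07 to 1.26 in WT and from 1.17 to 1.50 in ∆θ1/θ2, and the part of this difference in the results below was not tested. The paired viewpoints are not independent, since 66.8% to 74.5% of the fragments on other chromosomes that were listed under one α-globin viewpoint in a sample were also listed under the other. Values are counts divided by the sample's counts on the viewpoint's own chromosome (cis), given per 100000 cis counts, and a density is that value per kb. Differences are log2 fold changes of ∆θ1/θ2 over WT from edgeR, with calls at an adjusted p below 0.01.

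The question of the comparison was whether contacts of the α-globin promoters change when both θ sites are lost. Of 11 intervals across the locus, 2 were called from Hba-1 and 2 from Hba-2 (18.2% of the intervals tested for either viewpoint), and all of these were higher in ∆θ1/θ2. From both viewpoints they were the downstream flank of the sub-TAD and the adjoining interval with the HS+44/+48 CTCF sites. The intervals holding the enhancers, *Hba-x* and the θ sites themselves were not called. Whether the higher contacts follow the θ edits, other differences between the WT mice and the edited line, or library preparation was not tested.

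The downstream flank, from 32203108 to 32218901, begins beyond *Hbq1a* and held 47 DpnII fragments. From Hba-1 its density was 225.7, 224.1 and 230.2 in the WT samples and 312.1, 328.7 and 299.6 in the ∆θ1/θ2 samples. Every ∆θ1/θ2 sample lay above every WT sample, and the WT samples were close together. The means were 227 ± 3.15 and 314 ± 14.6 (SD over 3 samples a group), which is 0.47 on the log2 scale (SE 0.0769, edgeR adjusted p = 0.000667) or 1.38-fold. From Hba-2 the flank read 255.9, 262.5 and 270.4 in WT and 350.5, 372.4 and 331.8 in ∆θ1/θ2. The groups again did not overlap, with a log2 fold change of 0.42 (SE 0.0750, edgeR adjusted p = 0.0014). The Hba-2 call was lost with TMM scaling (edgeR adjusted p = 0.0130) and without ∆θ1/θ2 replicate 1 (edgeR adjusted p = 0.0113), whereas the Hba-1 call was kept under all 16 alternatives.

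HS+44/+48, from 32218902 to 32227296, carries the next pair of CTCF sites downstream and is unedited in these mice. From Hba-1 its density was 123.3, 129.9 and 130.9 in WT and 207.2, 165.9 and 180.2 in ∆θ1/θ2, with no overlap and the widest spread among the deleted samples. The log2 fold change was 0.55 (SE 0.121, edgeR adjusted p = 0.00417). From Hba-2 the WT samples read 140.8, 134.4 and 151.4 and the ∆θ1/θ2 samples 202.1, 178.2 and 199.9, which is 0.47 on the log2 scale (SE 0.104, edgeR adjusted p = 0.00449). These calls were less stable than the flank call. From Hba-1 the call was lost in 8 of 16 alternatives and from Hba-2 in 7 of 16, among them TMM scaling (edgeR adjusted p = 0.0207 and 0.0377) and leaving out ∆θ1/θ2 replicate 1 (0.0270 and 0.0731), ∆θ1/θ2 replicate 3 (0.0135 and 0.0173), WT replicate 2 (0.0107 and 0.0278) or WT replicate 3 (0.0254 and 0.0115). Leaving out WT replicate 1 ended the Hba-1 call (edgeR adjusted p = 0.0108).

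**Figure D1:**
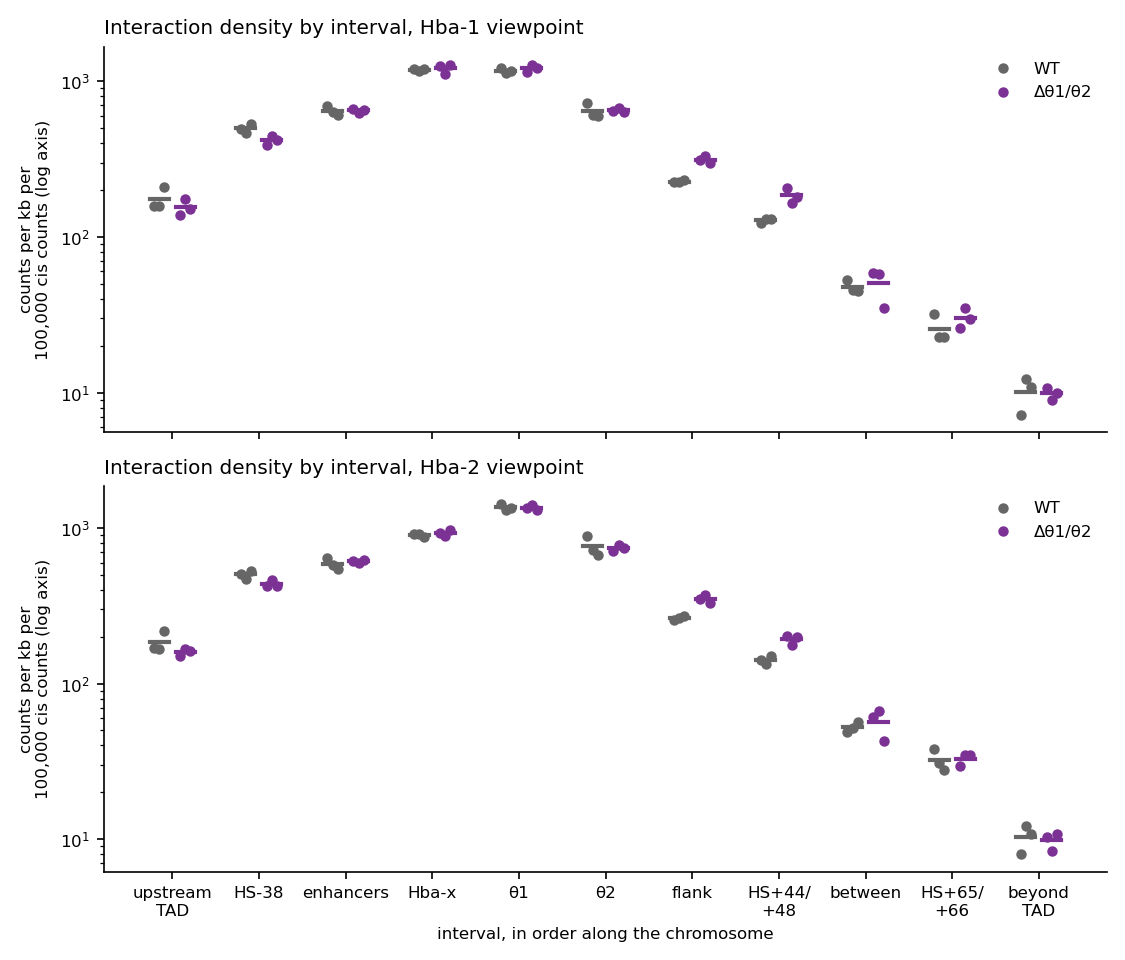
Interaction density (counts per kb per 100000 cis counts, log axis) in 11 intervals of the α-globin locus, in chromosome order, from the Hba-1 (top) and Hba-2 (bottom) viewpoints. Points are single samples (WT grey, ∆θ1/θ2 purple, 3 each) and bars are group means; in the flank and HS+44/+48 all ∆θ1/θ2 points lie above all WT points, while the enhancer and θ intervals overlap.

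The enhancer interval, from 32145279 to 32172142, gave 697.8, 638.2 and 604.2 in WT and 665.1, 627.8 and 652.4 in ∆θ1/θ2 from Hba-1. The groups overlapped, and the log2 fold change was 0.00 with an approximate 95% interval of -0.13 to 0.14. From Hba-2 it was 0.05 (-0.08 to 0.18). The interval around *Hba-x*, the embryonic ζ-globin gene, differed by 0.04 from either viewpoint, with 95% intervals of -0.10 to 0.17 and -0.09 to 0.16.

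The intervals that hold the edited sites did not pass the test either. The θ1 interval, from 32185214 to 32194503, differed by 0.06 from Hba-1 (-0.07 to 0.19) and by -0.01 from Hba-2 (-0.13 to 0.11). The θ2 interval, from 32198004 to 32203107, differed by 0.01 (-0.18 to 0.20) and -0.04 (-0.24 to 0.16). On the single fragment that carries θ1, Hba-1 gave 874.9, 629.3 and 998.8 in WT and 547.3, 921.6 and 674.4 in ∆θ1/θ2. On the θ2 fragment it gave 758.2, 476.8 and 599.3 against 418.2, 604.1 and 378.1. The groups overlapped on both fragments. The restriction site brought in at θ2 is that of BamHI, GGATCC, which contains the DpnII site GATC. The edited θ2 fragment can therefore be cut where the WT fragment is not, and its counts do not compare like with like. Sequence shared between the duplicated copies limits these values, since 13.9% of 30-base words of the θ1 interval and 19.0% of those of the θ2 interval occur more than once in the region, against 1.07% in the flank and 0.418% in HS+44/+48.

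Upstream, HS-38 holds CTCF sites at the far edge of the sub-TAD, from 32135980 to 32145278. From Hba-1 its density was 493.9, 468.0 and 531.7 in WT and 390.4, 441.6 and 418.7 in ∆θ1/θ2, with every deleted sample below every WT sample. The log2 fold change of -0.26 (SE 0.0855) missed the threshold (edgeR adjusted p = 0.0418). From Hba-2 the ∆θ1/θ2 samples, at 426.1, 465.1 and 424.0, were likewise below the WT samples at 505.4, 473.5 and 529.2, by -0.19 (edgeR adjusted p = 0.118). DESeq2 with its own size factors called HS-38 from both (DESeq2 adjusted p = 0.00692 and 0.00544), so that its calls split into 1 higher and 1 lower from Hba-1 and 2 and 1 from Hba-2. These factors also moved other Hba-1 intervals lower. The enhancers went from 0.00 to -0.09 and *Hba-x* from 0.04 to -0.06, beside HS-38 from -0.26 to -0.36. Further out, the TAD upstream of HS-38 differed by -0.18 and -0.21, the stretch between HS+48 and HS+65 by 0.12 and 0.14, HS+65/+66 by 0.20 and -0.01, and the region beyond by -0.04 and -0.08, none of which was called. With a replicate left out, the upstream TAD ranged from -0.269 to -0.0421 from Hba-1 and from -0.278 to -0.0756 from Hba-2. Without WT replicate 1 it was called lower from Hba-2 (-0.26, edgeR adjusted p = 0.00281).

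Within each sample, the drop from enhancers to flank can be read without any scaling between samples. The log2 ratio of enhancer to flank density from Hba-1 was 1.63, 1.51 and 1.39 in WT and 1.09, 0.93 and 1.12 in ∆θ1/θ2. From Hba-2 it was 1.33, 1.14 and 1.01 against 0.81, 0.68 and 0.90. The ratio stayed above 0 in all 6 samples and was lower in every ∆θ1/θ2 sample than in any WT sample, by -0.46 and -0.36 (exact permutation test, two-sided, p = 0.1 for either viewpoint, which is the lowest that 3 against 3 allows).

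At 5 kb resolution the higher contact peaked at the far end of the flank. Of 683 bins with at least 10 counts from Hba-1, 1 was called (0.146%), and of 674 from Hba-2, 1 was called (0.148%). Both calls fell on the same bin, from 32215001 to 32220000. From Hba-1 it held 904.1, 1037 and 958.8 per 100000 cis counts in WT and 1620, 1608 and 1441 in ∆θ1/θ2, a log2 fold change of 0.68 (SE 0.141, edgeR adjusted p = 0.00135). From Hba-2 it held 1086, 1167 and 1169 against 1688, 1761 and 1802, a log2 fold change of 0.61 (SE 0.113, edgeR adjusted p = 0.000466). No sample of either group reached the other group. The bin counts were sensitive, however. No bin was called from Hba-1 when any 1 of the 6 samples was left out, and none from Hba-2 without WT replicate 1 or 2 or ∆θ1/θ2 replicate 2 or 3, nor from either with TMM or DESeq2 size factors.

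The bins on either side were not called. The bin starting at 32205001 differed by 0.45 from Hba-1 and 0.35 from Hba-2, that at 32210001 by 0.57 and 0.50, and that at 32220001 by 0.45 and 0.41. In each of these the ∆θ1/θ2 samples lay above all WT samples. The next bin, starting at 32225001, differed by 0.05 from Hba-1 (-0.47 to 0.58) and by -0.11 from Hba-2. Neighbouring bins were not tested against each other. On the near side, the bin starting at 32200001, past θ2, differed by 0.23 and 0.13 with overlapping groups. The 6 enhancer bins from 32145001 differed by -0.10 to 0.13 from Hba-1 and by -0.08 to 0.17 from Hba-2.

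**Figure D2:**
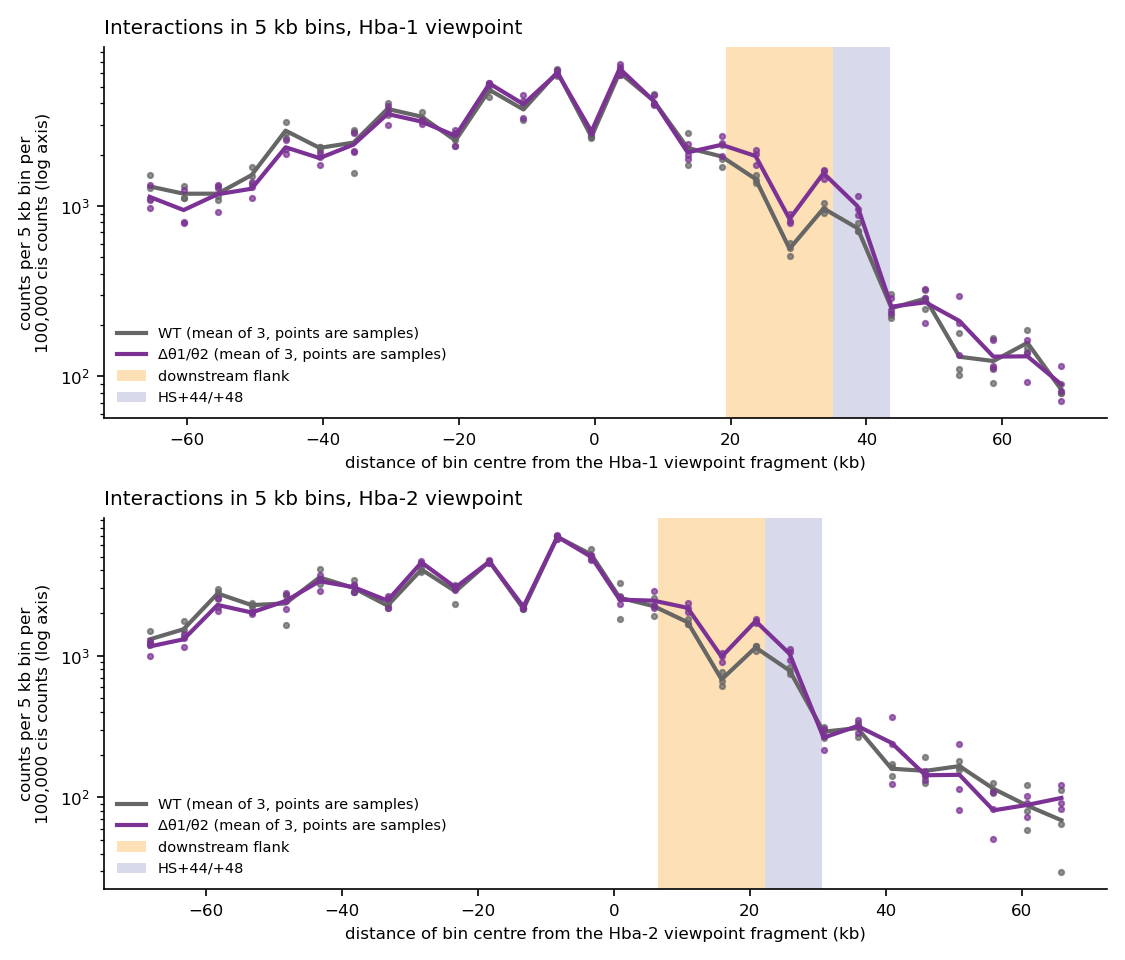
Counts per 5 kb bin per 100000 cis counts (log axis) against distance of the bin centre from the Hba-1 (top) and Hba-2 (bottom) viewpoint fragment in kb. Lines are means of 3 samples and points single samples (WT grey, ∆θ1/θ2 purple); the lines run together over the enhancers on the left and separate over the shaded flank and the near part of shaded HS+44/+48.

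Of the 11 genes listed for the α-globin region, 9 held enough counts to test, and none was called from either viewpoint. Over all genes of chromosome 11, edgeR called 0 of 498 from Hba-1 and 0 of 492 from Hba-2 (0% each), with 21 and 20 at an unadjusted p below 0.05, and DESeq2 called 0 from either. The median log2 fold change of the 9 genes was -0.03 from Hba-1 and -0.07 from Hba-2, beside -0.09 and -0.05 over all genes tested. *Hba-a1* and *Hba-a2* themselves, which lie within 1 kb of the viewpoint fragments, held no tested counts. *Nprl3*, a subunit of a complex that restrains mTORC1 and the host of the enhancers, held 22600, 21060 and 21460 per 100000 cis counts in WT and 20400, 20150 and 20680 in ∆θ1/θ2 from Hba-1. The ∆θ1/θ2 samples lay below the WT samples, and the log2 fold change of -0.09 (-0.26 to 0.08) was not called. From Hba-2 it held 22140, 20130 and 20420 against 20140, 19890 and 20270, with overlap and a log2 fold change of -0.06 (-0.22 to 0.11).

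*Rhbdf1*, an inactive rhomboid protease gene upstream of the enhancers, read 2975, 2704 and 3915 in WT and 2327, 3205 and 2473 in ∆θ1/θ2, a log2 fold change of -0.26 from either viewpoint with overlapping groups. *Mpg*, which encodes a DNA repair glycosylase, differed by -0.13 and -0.22, and *Hba-x* by -0.13 and -0.18. The genes next to the edited sites differed by -0.02 and -0.11 for *Hbq1b* and by 0.33 and 0.07 for *Hbq1a*. Downstream of the flank, *Sh3pxd2b*, an adaptor protein gene, differed by -0.03 and -0.07. *Ubtd2* differed by 0.34 and 0.26, on WT levels from Hba-1 of only 247.9, 278.4 and 199.8.

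The change was also seen when distance alone defined the windows. Of 14 distance bands, 1 was called from each α-globin viewpoint (7.14%), and both were on the side of higher coordinates. From Hba-1 the band at 25 to 50 kb took 3.03%, 3.13% and 3.11% of cis counts in WT and 4.75%, 4.35% and 4.22% in ∆θ1/θ2, a log2 fold change of 0.53 (SE 0.0712, edgeR adjusted p = 0.000773). From Hba-2, which lies nearer the flank, the band at 10 to 25 kb took 2.95%, 3.18% and 3.33% against 4.42%, 4.65% and 4.43%, a log2 fold change of 0.52 (SE 0.0776, edgeR adjusted p = 0.000812). The groups did not overlap in either band. The Hba-2 band was lost without ∆θ1/θ2 replicate 2 (edgeR adjusted p = 0.0107). With the replicate number as a block, both calls were lost (edgeR adjusted p = 0.0589 from Hba-1 and 0.0183 from Hba-2). Uncalled bands without overlap included 25 to 50 kb on the lower side of Hba-1 (-0.16) and 50 to 100 kb on that of Hba-2 (-0.21). They also included 25 to 50 kb on the higher side of Hba-2 (0.23).

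The β-globin viewpoints on chromosome 7, where nothing was edited, gave no calls. From Hbb-b1 and from Hbb-b2, edgeR called 0 of 14 bands (0%, with 1 each at an unadjusted p below 0.05), and DESeq2 called 0 from either. Differences of about the same size lay in both directions. The larger rises in mean were between the paired genes. The band from 1 to 10 kb on the higher side of Hbb-b1 took 8.01%, 6.90% and 5.95% in WT and 8.20%, 8.15% and 9.25% in ∆θ1/θ2 (log2 fold change 0.29, edgeR adjusted p = 0.485), without overlap. That on the lower side of Hbb-b2 took 8.89%, 8.07% and 6.14% against 9.53%, 8.73% and 10.0% (0.29, edgeR adjusted p = 0.396), with overlap. The bands named from 1 kb can hold counts nearer to their viewpoint. On the lower side, the band from 50 to 100 kb differed by -0.30 from Hbb-b1 with overlap (edgeR adjusted p = 0.485) and by -0.26 from Hbb-b2 (edgeR adjusted p = 0.396), where every ∆θ1/θ2 sample lay below every WT sample. The samples were likewise apart in the band from 250 to 1000 kb on the lower side of Hbb-b1 (-0.22, edgeR adjusted p = 0.485). In 5 kb bins edgeR called 0 of 556 and 0 of 631 (20 and 24 at an unadjusted p below 0.05). The embryonic β-like genes *Hbb-bh1* and *Hbb-y* differed by 0.23 and -0.08 from Hbb-b1 and by 0.20 and 0.12 from Hbb-b2, none of them called.

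**Figure D3:**
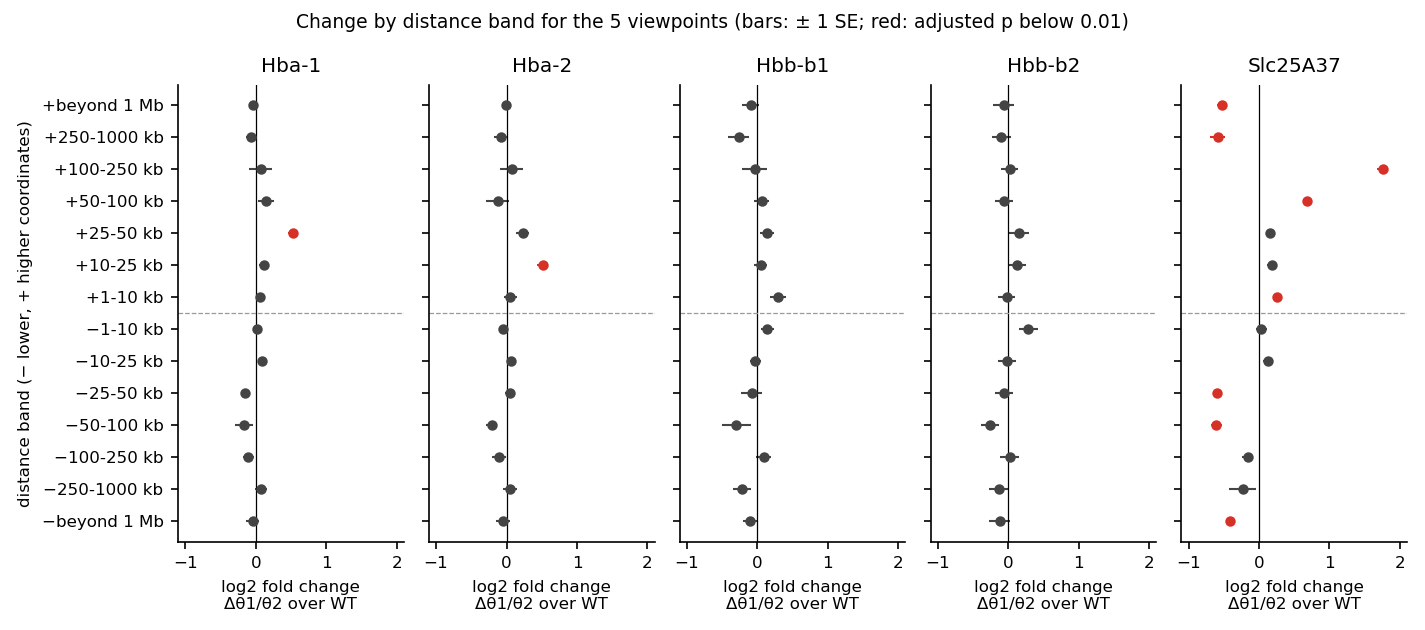
Log2 fold change of ∆θ1/θ2 over WT in 14 distance bands for each of the 5 viewpoints, with bars of 1 SE and red for an edgeR adjusted p below 0.01. The Hba-1 and Hba-2 panels have 1 red band each, at 25 to 50 kb and 10 to 25 kb on the higher side, the Hbb panels have none, and Slc25A37 has 8.

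The mitoferrin viewpoint on chromosome 14 changed most. From Slc25A37, 8 of 14 bands were called (57.1%), 3 higher (21.4%) and 5 lower (35.7%), as were 29 of 995 bins (2.91%), 23 higher (2.31%) and 6 lower (0.603%). The larger changes lay over *Loxl2*, which encodes a lysyl oxidase-like enzyme that cross-links extracellular matrix. Its gene body, from 70008978 to 70095640, held 908.8, 1305 and 1042 per 100000 cis counts in WT and 7303, 7613 and 7098 in ∆θ1/θ2. Each ∆θ1/θ2 sample thus lay far above each WT sample. The log2 fold change was 2.74 (SE 0.10, edgeR adjusted p = 1.53e-20), or 6.67-fold, and ran from 2.56 to 3.20 over 18 alternatives with the call kept in all of them.

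Of 403 genes tested on chromosome 14, 4 were called and all were higher (0.993%). Beside *Loxl2* they were *Gm16867*, which overlaps *Loxl2* and shares its fragments (log2 fold change 1.66), *Entpd4* and *D930020E02Rik* (0.34, edgeR adjusted p = 0.00701). *Entpd4*, a nucleotidase gene between the viewpoint and *Loxl2*, held 1999, 1929 and 1868 in WT and 2737, 2830 and 2696 in ∆θ1/θ2, without overlap (0.51, SE 0.101, edgeR adjusted p = 0.00256). The calls of *Entpd4* and *D930020E02Rik* were lost without WT replicate 1 (edgeR adjusted p = 0.0255 and 0.0401), WT replicate 3 (0.0273 and 0.0418), ∆θ1/θ2 replicate 2 (0.0241 and 0.0429) or ∆θ1/θ2 replicate 3 (0.0144 and 0.0400), and that of *D930020E02Rik* also without ∆θ1/θ2 replicate 1 (0.0160). Both calls were also lost with library size within 1 Mb (edgeR adjusted p = 0.0616 and 0.239). *Slc25a37* itself differed by -0.05. Several other settings also called lower genes, among them 8 with at least 30 counts and 6 with at least 1 count, beside 4 higher with each.

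The higher bins formed a run from 69985001 to 70095000 that covered *Loxl2*, together with 1 bin inside *Slc25a37* at 69880001 (0.47). Among the 10 bins with the smallest adjusted p, that at 70085001 held 101.0, 89.2 and 88.2 in WT and 768.4, 894.0 and 946.8 in ∆θ1/θ2, a log2 fold change of 3.21 (edgeR adjusted p = 1.24e-52). The bin at 70050001 had a log2 fold change of 3.25. The bin at 70090001, close to the end of *Loxl2*, was the last of the run at 1.60. The band from 100 to 250 kb on that side took 2.28%, 2.77% and 2.45% of cis counts in WT and 8.23%, 9.03% and 8.31% in ∆θ1/θ2.

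Falls from this viewpoint depended on the scaling. A larger share of cis counts lay within 1 Mb in ∆θ1/θ2 (76.2%, 77.1% and 76.6%) than in WT (69.3%, 66.1% and 68.7%; exact permutation test, two-sided, p = 0.1, the lowest that can be reached), and the median over all bins tested was -0.29. The share of all counts that lay in cis was 70.6%, 69.0% and 69.9% in WT and 68.2%, 67.2% and 67.6% in ∆θ1/θ2. The bands at 25 to 50 kb and 50 to 100 kb on the lower side differed by -0.60 and -0.61, and those beyond 1 Mb by -0.41 and -0.53. When samples were scaled to the counts beyond 1 Mb, a setting chosen after the data were seen, 8 bands were called higher and 0 lower, against 3 and 5, and 44 bins higher and 2 lower, against 23 and 6. The split of bands was 5 higher and 5 lower with DESeq2 and 2 and 6 with library size within 1 Mb, where the bins split into 21 and 13 and the genes into 2 and 10. The 4 lower bins from 69850001 to 69870000, chosen after their values were seen, lie over the distal part of *Slc25a37* and just past it and differed by -0.69, -0.87, -1.08 and -0.81. The other 2, starting at 71025001 and 71030001, differed by -1.65 and -2.51.

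**Figure D4:**
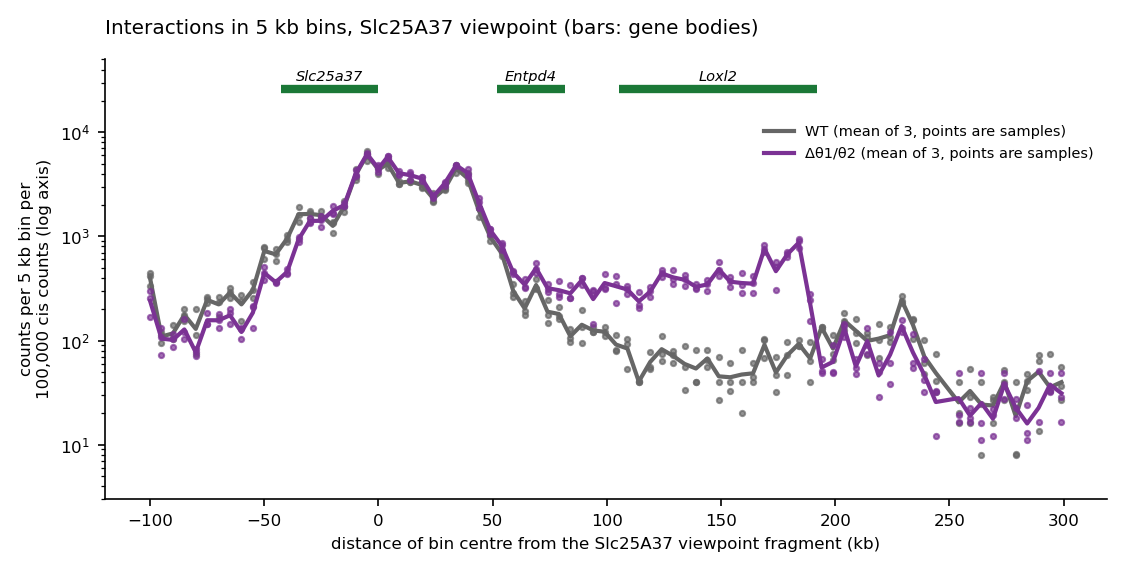
Counts per 5 kb bin per 100000 cis counts (log axis) against distance of the bin centre from the Slc25A37 viewpoint fragment in kb, with lines for means of 3 samples, points for single samples with counts, and green bars for gene bodies. The ∆θ1/θ2 line (purple) leaves the WT line (grey) over *Entpd4* and returns at the far end of *Loxl2*.

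The other edited lines of the experiment were high over *Loxl2* as well. The ∆θ1 samples held 5723, 6254 and 6604 per 100000 cis counts and the ∆θ2 samples 7813, 7452 and 7303. All 9 edited samples therefore lay above all 3 WT samples. These comparisons share the WT samples, and the effect of the θ edits, other differences between the WT mice and the edited lines, and differences in library preparation cannot be told apart here. From Slc25A37 the counts per listed fragment on other chromosomes were 1.26, 1.16 and 1.16 in WT and 1.29, 1.32 and 1.50 in ∆θ1/θ2, without overlap, and their part in this result was not tested.

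**Figure D5:**
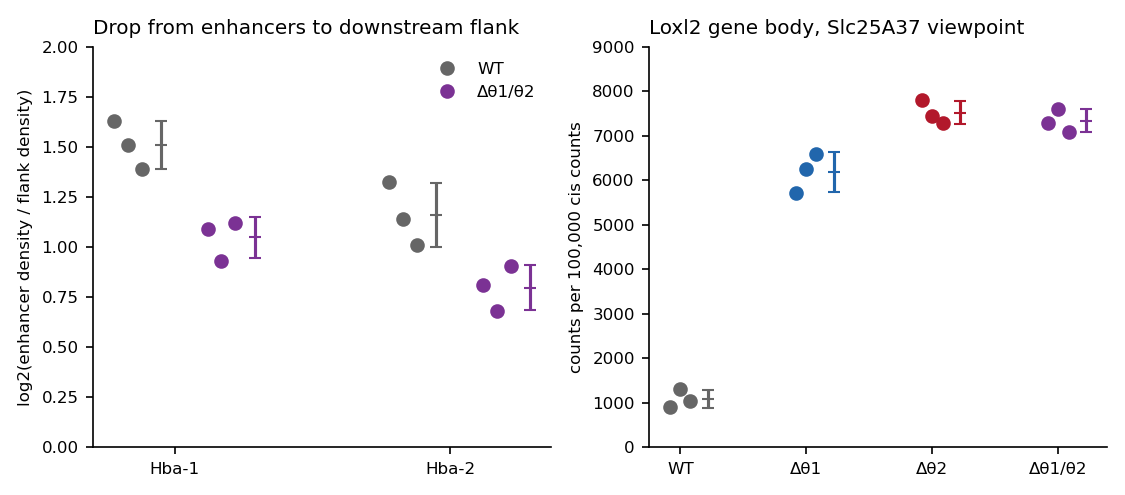
Left, log2 ratio of enhancer to flank density from Hba-1 and Hba-2 in 3 WT (grey) and 3 ∆θ1/θ2 (purple) samples; right, counts over *Loxl2* per 100000 cis counts from Slc25A37 in the 4 groups of experiment 2 (3 samples each). Points are samples and bars the mean ± SD; the ratio is lower in every ∆θ1/θ2 sample, and *Loxl2* is high in all 3 edited groups.

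The direct comparison of ∆θ1/θ2 with ∆θ2 asked how the line with both edits differs from that with the θ2 edit alone. The lines and their libraries are separate, so the part of the θ1 edit in any difference was not tested. The flank density from Hba-1 was 295 ± 22.4 in ∆θ2 (SD, n = 3), from 270.2 to 313.5, and overlapped that of ∆θ1/θ2. The difference was 0.08 from Hba-1 (edgeR adjusted p = 0.449) and 0.05 from Hba-2 (edgeR adjusted p = 0.514), and that of HS+44/+48 was 0.18 and 0.13. From Hba-1 edgeR called 0 of 11 intervals (0%, with 4 at an unadjusted p below 0.05), and DESeq2 called 0. From Hba-2 it called 4 of 11 (36.4%). They were the enhancers (0.18, edgeR adjusted p = 0.000885), *Hba-x* (0.25, edgeR adjusted p = 0.00135) and θ1 (0.23, edgeR adjusted p = 0.000444), all higher in ∆θ1/θ2, and the region beyond HS+65/+66, which was lower (-0.63, edgeR adjusted p = 0.00141). These calls were fragile, with 0 left without ∆θ1/θ2 replicate 1, 1 without ∆θ2 replicate 2, 2 without ∆θ1/θ2 replicate 3, and 1 each with TMM or DESeq2 size factors.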

How the data were processed

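Per the file headers and the labels, the authors deposited, for each sample and viewpoint, counts of unique reporter interactions per DpnII fragment on mm9. The study's methods describe adaptor removal, in silico DpnII digestion, alignment with Bowtie and removal of PCR duplicates. The submitters' processing notes name Trim Galore, Bowtie and mm9. Combined viewpoints were left out. Groups came from the sample titles.

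A zone of 1 kb around viewpoint fragments was set for exclusion, but not all counts in it were left out. The annotated *Hbb-b1* gene, from 110975048 to 110976610, lies within 1 kb of the fragment labelled Hbb-b2 and held 752 counts from it. Bands and genes next to a viewpoint can therefore hold such counts. Fragments were assigned by their midpoint to 11 intervals that follow the domains and elements of the study, 14 distance bands, 5 kb bins and gene bodies of the mm9 annotation (bins and genes with at least 10 counts over the samples compared). Counts were tested with edgeR 4.0.16 (quasi-likelihood, R 4.3.3), with cis counts as library size and Benjamini-Hochberg adjustment within a viewpoint, at 0.01. DESeq2, which the methods name in another version, was an alternative, run in version 1.42.0. Approximate 95% intervals are the log2 fold change with normal bounds from its SE. Summaries used Python 3.11.15, numpy 2.4.6, pandas 2.3.3, pysam 0.24.0 and matplotlib 3.10.9.

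The other alternatives were TMM factors, library size within 1 Mb, a zone wider by 5 kb, a fit over all 4 groups, a block for the replicate number, each replicate left out, other filters (1 or 30 counts), 2 kb, 20 kb and shifted bins, gene spans with 2 kb added, fragments wholly within a window, no top fragment, the α-globin viewpoints summed, and a threshold of 0.05. Library sizes without *Loxl2* or beyond 1 Mb, and the alternatives of the ∆θ2 comparison, were chosen after the data were seen. Members and lists were chosen with earlier results of these data known. Named are every interval and band, called bins and genes up to the 10 with the smallest adjusted p per viewpoint, bins and genes at the listed elements, a fixed gene list, and the 5 largest changes among bins with at least 100 counts from each α-globin viewpoint.

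Cis counts per viewpoint ran from 5326 to 31234. On simulated data, edgeR recovered 58 of 80 intervals changed by 0.5 on the log2 scale from Hba-1 (72.5%, 11 intervals per run), but only 7.5% of 200 bins changed by 1 among 683, and 3.5% among 995 from Slc25A37. Most such changes of single bins were therefore not recovered with 3 samples a group. Errors cover the spread between samples and counting.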

Additional observations from a re-analysis of the deposited data

How the results depend on the processing

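Over 942 alternative values for 60 named intervals, bands, bins and genes, 806 kept their direction and their side of the threshold, 83 lost the call, 10 gained one and 43 changed sign. All sign changes were of values not called, apart from the Slc25A37 band beyond 1 Mb on the lower side, at 0.0424 when scaled to the counts beyond 1 Mb, which is made of those counts. Where no value shows it, the cause was not tested.

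Interval calls from Hba-1 fell from 2 to 1 with TMM factors and from Hba-2 to 0, and to 1 from Hba-2 with all 4 groups in one fit. Leaving out 1 replicate gave 1 to 2 calls from Hba-1 and 0 to 3 from Hba-2. For ∆θ1/θ2 against ∆θ2, calls from Hba-1 were 3 at a threshold of 0.05 and 0 to 2 with a replicate left out. From Hba-2 they were 1 with TMM factors, 1 with DESeq2, 1 with the wider zone, 0 with all 4 groups and 0 to 4 with a replicate left out.

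Bands from Hba-2 gave 0 to 2 calls with a replicate left out. Bins from Hba-1 gave 0 calls with TMM factors, DESeq2, the wider zone, at least 30 counts, at least 1 count or 2 kb bins, 2 with bins moved by 2.5 kb, and 0 with any replicate left out. Bins from Hba-2 gave 0 with TMM factors, DESeq2 or 20 kb bins, 3 when moved, and 0 to 1 with a replicate left out. Hbb-b1 gave 1 with 2 kb bins. Slc25A37 bins gave 44 at a threshold of 0.05, 58 at 2 kb, 13 at 20 kb and 46 when scaled to counts beyond 1 Mb. Slc25A37 genes gave 14 at a threshold of 0.05 (4 higher and 10 lower) and 12 with library size within 1 Mb (2 and 10). They gave 12 with at least 30 counts (4 and 8), 10 with at least 1 count (4 and 6) and 9 with 2 kb added to genes (3 and 6). With a replicate left out they gave 2 to 4.

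With 5326 to 31234 cis counts per viewpoint and sample, single bins and genes away from the viewpoint held few counts, and most changes of single bins went uncalled on simulated data. Deviations of same-numbered samples correlated by -0.07 to 0.12 over bins and by over 0.1 in only 1 of 15 cases. Many of these bins held few counts, so this check cannot decide whether replicate numbers pair the samples. With the replicate number as a block, interval calls were 1 from Hba-1 and 1 from Hba-2, and band calls 0 and 0. Interval calls against ∆θ2 from Hba-2 were 0 with the block, and Slc25A37 genes 11 (4 higher and 7 lower). The flank from Hba-1 was 0.47 with the block.

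Small values changed sign as follows. With TMM factors, Hba-1 gave -0.0457 for the enhancers, -0.0143 for *Hba-x* and -0.0353 for θ2. With DESeq2 it gave -0.0935, -0.0628 and -0.0838 for these, -0.0415 for θ1 and -0.0024 between HS+48 and HS+65, and Hba-2 gave -0.0217 for the enhancers and -0.0393 for *Hba-x*. With library size within 1 Mb, Hba-1 gave -0.0135 for the enhancers and -0.0044 for θ2. With fragments wholly within, the Hba-1 enhancers were at -0.0018 and HS+65/+66 from Hba-2 at 0.0287. Without the top fragment, θ2 was -0.0787 from Hba-1 and θ1 0.0043 from Hba-2. With both viewpoints summed, θ2 was -0.0126, θ1 0.0224 and HS+65/+66 0.0912. The block turned the region beyond HS+65/+66 to 0.005 from Hba-1. With a replicate left out, Hba-1 ranged from -0.0402 to 0.0613 for the enhancers, from -0.0397 to 0.107 for θ2, from -0.0424 to 0.288 between HS+48 and HS+65 and from -0.228 to 0.182 beyond. Hba-2 ranged from -0.043 to 0.0265 for θ1, from -0.103 to 0.0788 for θ2, from -0.0758 to 0.101 for HS+65/+66 and from -0.224 to 0.108 beyond. Against ∆θ2, the flank was -0.0085 with TMM factors and -0.0133 with DESeq2 from Hba-1, and -0.0191, -0.0067 and, with library size within 1 Mb, -0.0158 from Hba-2.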
